A study of Mus musculus with 2 samples.

Results

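Cd226, Pecam1 and 8 other receptors by which platelets touch each other and their neighbours (Esam, Jam3, F11r, Cd84, Cd47, Treml1, Ceacam1 and Pear1) were followed in platelet RNA of mice with loxP-flanked Smad4 and of mice with Smad4 deleted by a platelet-lineage Cre. The 10 genes, of 18193 genes with a probe set of their own, were chosen by function and on the signals of Cd226 and Pecam1 in these same arrays, so every value below is a description and no test. Washed platelets came from C57BL/6 mice whose Smad4 alleles are flanked by loxP sites (Smad4 f/f, which the labels call wild type controls) and from mice in which Cre recombinase under the Pf4 promoter deletes Smad4 in megakaryocytes and platelets (Smad4 -/-). The study gives 6 mice and 1 Affymetrix mouse genome array per genotype. Whether RNA of the mice was pooled, whether the controls carry Cre, and the age of the animals are not given in the sources used here. Smad4 itself has 3 probe sets, which read 949 in Smad4 f/f against 894 in Smad4 -/-, 600.1 against 548 and 313 against 288, with log2 ratios of -0.13 to -0.09. They therefore do not show the deletion, and since their place relative to the deleted part was not analysed here, they do not check the labels, from which the genotypes are taken. With 1 array per genotype there is no replicate error and no test can be run. Precision is limited by the number of arrays.

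Contact receptors act late in platelet activation, when platelets have come to lie against each other. Most are single-pass membrane proteins of the immunoglobulin superfamily that bind a copy of themselves or a relative on the facing cell. Some carry tyrosine motifs that recruit phosphatases and so dampen collagen receptor signalling, and others strengthen the aggregate or the adhesion to leukocytes and endothelium. Platelets have no nucleus, so their RNA was made in the megakaryocyte or taken up. RNA of any other cells in the preparation would be measured with it.

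The array design gave the 10 genes 27 probe sets of their own, each a group of short probes that yields 1 signal per array. Another 3 probe sets are annotated to a member together with a second gene, 2 to Ceacam1 with Ceacam2 and 1 to Pear1 with Lrrc71, and were left out. A probe set counted as measured where at least 1 array reached a signal of 145 (log2 7.18), a floor that corresponds to the 60th percentile of the brighter array. On this rule 24 of the 27 member probe sets were measured, all of them above the floor on both arrays, and all 10 genes had at least 1. Each gene is represented by its brightest probe set over both arrays (an _x_at set only where there was no other), and counts as measured where that set does. Ratios are Smad4 -/- over Smad4 f/f. Signals of different probe sets have no common scale, so no receptor is ranked above another by level.

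SMAD proteins bind DNA at a short SMAD box, and GATA and ETS factors bind the promoters of many megakaryocyte genes, so the stretch before the start site is shown for a few members as context for their ratios. RefSeq windows (GRCm38.p6) of the 250 bases before the start were used for 6 members, and none for Cd226, Pecam1, Esam and Jam3. The windows of Treml1 (chr17:48359666-48359915, plus strand), Cd84 (chr1:171839447-171839696, plus strand) and F11r (chr1:171437311-171437560, plus strand) are printed because Treml1 was higher in Smad4 -/-, Cd84 differed little and F11r was lower. Capitals mark the SMAD box CAGAC and the ETS motif GGAAG, each on either strand.
Treml1: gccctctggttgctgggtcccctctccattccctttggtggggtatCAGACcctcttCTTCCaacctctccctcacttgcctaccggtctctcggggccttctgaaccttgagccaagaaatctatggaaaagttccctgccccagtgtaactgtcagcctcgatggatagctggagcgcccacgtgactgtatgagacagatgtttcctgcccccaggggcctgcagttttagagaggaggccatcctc
Cd84: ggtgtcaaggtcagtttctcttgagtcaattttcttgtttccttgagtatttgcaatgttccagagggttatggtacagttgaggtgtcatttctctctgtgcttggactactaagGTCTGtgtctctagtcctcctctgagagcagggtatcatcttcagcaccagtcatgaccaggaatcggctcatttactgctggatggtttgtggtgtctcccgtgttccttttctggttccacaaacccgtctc
F11r: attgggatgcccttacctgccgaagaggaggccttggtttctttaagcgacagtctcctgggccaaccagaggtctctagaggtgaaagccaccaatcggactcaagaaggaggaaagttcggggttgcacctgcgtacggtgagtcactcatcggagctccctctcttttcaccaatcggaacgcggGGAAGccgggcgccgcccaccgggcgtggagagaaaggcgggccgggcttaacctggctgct
The Treml1 window holds a SMAD box and an ETS motif, the Cd84 window a SMAD box and the F11r window an ETS motif. A SMAD box was found in 4 of the 6 members (Cd84, Ceacam1, Pear1 and Treml1) and in 42.2% of all 32851 RefSeq windows. An ETS motif was found in 4 of 6 (Cd47, F11r, Pear1 and Treml1) and in 64.1% of all windows. The GATA motif AGATAA, on either strand, was in none of the 6 and in 9.99% of all windows. No matches overlapped in these windows. The 4 members with a SMAD box had log2 ratios of -0.11 for Cd84, 0.48 for Ceacam1, -0.53 for Pear1 and 0.43 for Treml1, on both sides of 0. A match of letters is a description and not a binding site.

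Among the receptors, Cd226 alone passed 2-fold. Its signal was 5.06-fold lower in Smad4 -/- platelets. Pecam1 was 1.89-fold higher, just short of 2-fold, and the other 8 differed by 1.08-fold to 1.45-fold in either direction. Of the 10 genes, 6 were higher and 4 lower in Smad4 -/-, 0 passed 2-fold upward and 1 passed it downward. The background was 3.42% of the 11089 measured genes at least 2-fold higher and 3.58% at least 2-fold lower, a share that can be set beside the count but supports nothing, since Cd226 was chosen for its difference. The median log2 ratio of the 10 genes was 0.33, against -0.02 over all measured genes. Of the 24 measured member probe sets, 17 were higher and 7 lower, with 0 and 1 past 2-fold, where 3.24% of all 21377 measured probe sets were at least 2-fold higher and 3.51% at least 2-fold lower.

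**Figure D1:**
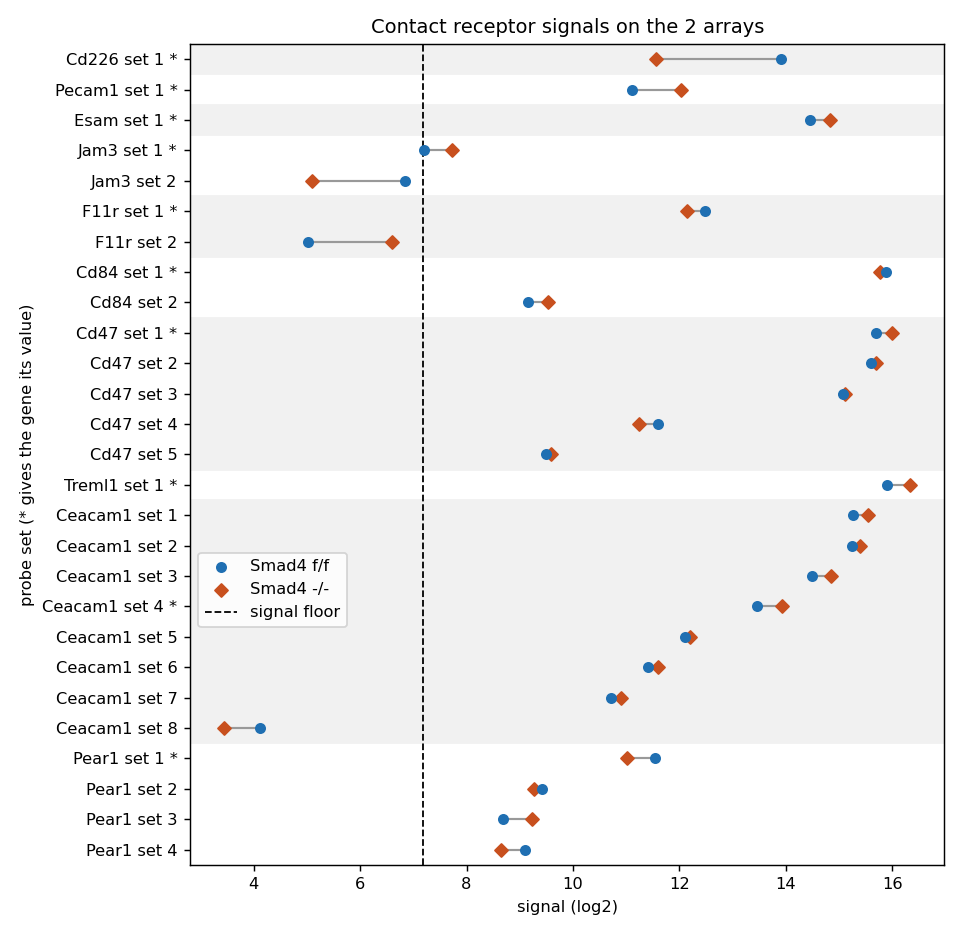
Signals (log2) of all 27 probe sets of the 10 receptors on the Smad4 f/f array (circles) and the Smad4 -/- array (diamonds), 1 row per probe set, numbered within a gene by mean signal, with the probe set that gives the gene its value starred and the signal floor of 7.18 dashed. The Cd226 points lie farthest apart of the probe sets above the floor, 13.91 against 11.57, and the 3 probe sets left of the floor on both arrays belong to Jam3, F11r and Ceacam1.

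Cd226 (also DNAM-1) is a receptor of platelets, T cells and natural killer cells that binds the nectin-family proteins PVR and Nectin-2 on other cells. Its single probe set read 15351 in Smad4 f/f but 3035 in Smad4 -/- (log2 ratio -2.34). Both signals were far above the floor, at 106 and 20.9 times it. No second probe set with this symbol was in the data used to set beside this value, and the part of the transcript that the set covers was not analysed here. Counting Cd226 itself, 5 of the 11089 measured genes were as low or lower in Smad4 -/-. Among the 774 measured genes whose mean log2 signal lay within 1 of its own, 33 (4.26%) passed 2-fold in either direction and none but Cd226 was as low. Of 1293 genes that reached a log2 signal of 12 on at least 1 array, 18 were at least 2-fold lower, and Cd226 had the lowest ratio. In bulk RNA, fewer cells of a type and less RNA per cell cannot be told apart.

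Pecam1 (CD31) binds itself on the facing platelet, leukocyte or endothelial cell and carries inhibitory tyrosine motifs in its tail. Its probe set read 2203 in Smad4 f/f against 4170 in Smad4 -/- (log2 ratio 0.92). It too is the only probe set with this symbol. Among 1169 measured genes of like mean signal (within 1 on the log2 scale), 52 (4.45%) were as high or higher, Pecam1 included, and 61 (5.22%) passed 2-fold in either direction. Centring both arrays on their medians, in place of the authors' scaling, took Pecam1 past 2-fold, to a log2 ratio of 1.01. Quantile normalisation and loess correction left Pecam1 short of 2-fold, at 0.92 and 0.91. Pecam1 is also the standard marker of endothelial cells, whose other markers are given below.

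Pooled over the 4252 genes with at least 2 measured probe sets, the SD of the log2 ratio between probe sets of the same gene was 0.48, and it was 0.31 over the 1427 genes with at least 2 probe sets of a mean log2 signal of 9 or more. Cd226 stood 4.89 and Pecam1 1.92 of the first SD from 0, and 7.51 and 2.95 of the second. Of the 10 genes, 5 lay within 1 of the first SD of 0 (Cd84, Cd47, F11r, Esam and Treml1), Ceacam1 at 0.48 just outside it. Of these 5, F11r (-0.34), Esam (0.38) and Treml1 (0.43) lay outside the second SD. A mean log2 signal of 9 or more was reached by 9 of the 10 genes. Either SD is a spread between probe sets, which may read different transcripts of a gene, and holds no spread between mice. Cd226 and Pecam1 have 1 probe set each and were chosen on their signals here, so their distances from 0 are no test.

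The receptors of endothelial and epithelial junctions that platelets also carry went in different directions. Esam, which binds itself at platelet and endothelial contacts, read 22458 in Smad4 f/f against 29173 in Smad4 -/- (log2 ratio 0.38) by its only probe set. F11r (JAM-A), a junctional adhesion molecule that restrains integrin signalling in resting platelets, went the other way, with 5726 in Smad4 f/f against 4517 in Smad4 -/- and a log2 ratio of -0.34. Jam3 (JAM-C), its relative, which can bind the leukocyte integrin Mac-1, gave a signal at the edge of detection. Its stronger probe set read 147 in Smad4 f/f, barely above the floor of 145, and 213 in Smad4 -/- (log2 ratio 0.54). The second probe sets of Jam3 (116 against 34.3) and F11r (32.4 against 96.6) lay below the floor on both arrays. Values below the floor have no order and were given no ratio.

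Ceacam1, an inhibitory receptor of the carcinoembryonic antigen family that binds itself and carries tyrosine motifs for phosphatases, was the member with the most probe sets. All 7 of its measured probe sets were higher in Smad4 -/-, with log2 ratios from 0.08 to 0.48 and a mean of 0.25. The set that gives the gene its value read 11205 in Smad4 f/f against 15636 in Smad4 -/-, and it had the highest ratio of the 7. Of the others, the set with the strongest signal read 39053 against 47843 (log2 ratio 0.29) and a set with no suffix for shared probes read 4412 against 4677 (log2 ratio 0.08). The eighth set read 17.5 and 10.95, below the floor. The 7 sets therefore agreed in direction but not in size, and the size of the Ceacam1 difference depends on which set is read. Several of them end in _x_at or _s_at, the suffixes for probes that may bind other transcripts, and the near-identical paralog Ceacam2 could add to them, which was not tested. The probe set of Ceacam2 alone lay below the floor on both arrays, at 38.3 and 36.8.

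**Figure D2:**
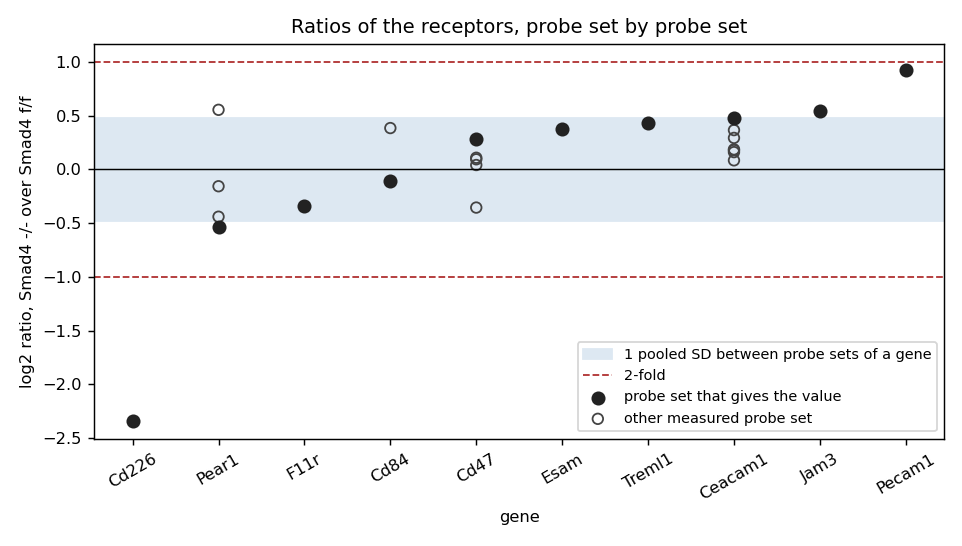
Log2 ratios (Smad4 -/- over Smad4 f/f) of the 24 measured probe sets, by gene and ordered by the value of the gene, with the probe set that gives the value filled and the others open, the 2-fold lines dashed and 1 pooled SD between probe sets of a gene (0.48) shaded. Cd226 at -2.34 lies outside the 2-fold lines, Pecam1 at 0.92 just inside, and the sets of Pear1 spread from -0.53 to 0.55.

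Cd84 and Cd47 differed little between the arrays. Cd84, a member of the SLAM family that binds itself between platelets and between lymphocytes, read 60160 in Smad4 f/f against 55795 in Smad4 -/- by its stronger probe set (log2 ratio -0.11). Its weaker set read 569 and 743, a log2 ratio of 0.38, so the sets disagreed in direction, and their mean ratio was 0.14. Cd47, which signals to macrophages not to engulf the cell and also binds thrombospondin, had 5 measured probe sets. The strongest read 53167 against 64774 (log2 ratio 0.28). The next sets read 49281 against 53119 and 34364 against 35344, with log2 ratios of 0.11 and 0.04. Of the weaker Cd47 sets, 1 lay on the other side (3112 against 2432, log2 ratio -0.36) and 1 read 723 against 771. The mean over the 5 was 0.03, so the difference of the strongest set was not shared by the gene's sets together.

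Treml1 (TLT-1) is a receptor stored in platelet alpha granules and brought to the surface on activation, where it binds fibrinogen. Its single probe set read 61264 in Smad4 f/f against 82528 in Smad4 -/- (log2 ratio 0.43). Signals of this strength varied little between the arrays: of 256 measured genes within 1 log2 unit of its mean signal, 5 (1.95%) passed 2-fold in either direction, and 15 (5.86%), Treml1 included, were as high or higher. Pear1, an EGF-repeat receptor that is phosphorylated on platelet contact and signals through PI3 kinase and Akt, had 4 measured sets that did not go the same way. Its strongest read 2996 in Smad4 f/f against 2072 in Smad4 -/- (log2 ratio -0.53). Another 2 sets were also lower, at 687 against 616 and 545 against 402, with log2 ratios of -0.16 and -0.44. The remaining set was higher, at 409 against 601 (log2 ratio 0.55), which brought the mean of the 4 to -0.14. Of the 4 members with at least 2 measured probe sets, Ceacam1 alone had all of them in the same direction, while Cd84, Cd47 and Pear1 had sets on both sides of 0.

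**Figure D3:**
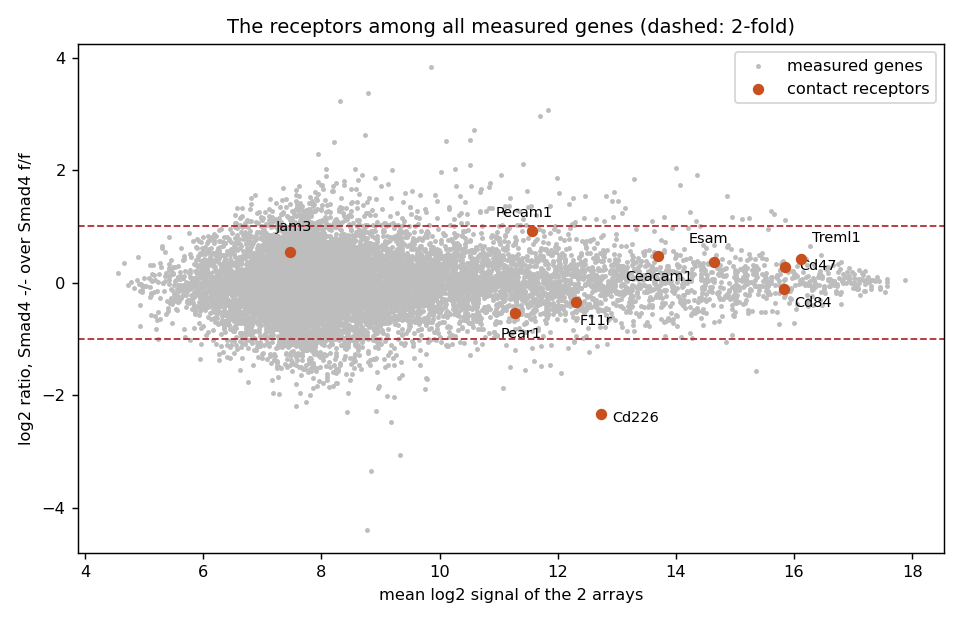
Log2 ratio (Smad4 -/- over Smad4 f/f, signals raised to the floor) against the mean log2 signal of both arrays for all 11089 measured genes (grey) and the 10 receptors (orange, named), with the 2-fold lines dashed. Cd226 lies below the cloud of genes of like signal, Pecam1 close under the upper line, and the other 8 receptors within the cloud.

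Of 7488 other named genes above the floor on both arrays, Oxr1, Sumo3, Ston2, Mcfd2 and Nabp1 had the pair of log2 signals closest to that of Cd226. The lowest of their log2 ratios was -1.23, for Oxr1. None could be as low as Cd226, which had the lowest ratio of the genes that reached a log2 signal of 12. For Pecam1 the 5 closest genes were Dctn2, Marcks, Park7, Cyp4x1 and Anxa2. Because levels of different probe sets have no common scale, a close pair of signals tells nothing about a relation between the genes.

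The neighbours of Cd226 and Pecam1 by RefSeq gene order are given with their values. Both receptors were chosen on their signals in these arrays, so a smaller ratio in a neighbour tells nothing. Within 2 protein-coding genes on either side of Cd226, Tmx3 was measured (3526 in Smad4 f/f and 2889 in Smad4 -/-, log2 ratio -0.29), the representative sets of Socs6 and Rttn lay below the floor on both arrays, and Dok6 was not analysed here. Beside Pecam1, Ern1, Tex2 and Polg2 had log2 ratios of 0.46, -0.22 and 0.03, and Milr1 lay below the floor. Cd84 sits next to 2 other SLAM genes. Slamf1, which platelets also carry, read 69660 against 56836 (log2 ratio -0.29, with 3 probe sets from -0.51 to -0.29), and Slamf6 read 240.0 against 324 (log2 ratio 0.43). For these pairs only the values are given; no difference between neighbours was tested.

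Genes that work with these receptors were taken from 9 lists of ligands, relatives, scaffolds and signalling proteins. Of 84 measured partner genes among 128 with a probe set, 0 were at least 2-fold higher and 3 (3.57%) at least 2-fold lower in Smad4 -/-, beside 3.42% and 3.58% of all measured genes, and their median log2 ratio was -0.06. Among the nectin-family ligands and receptors around Cd226, 0 of 6 measured genes passed 2-fold. Pvr, a ligand of Cd226, read 164 and 153, little above the floor, and Nectin2, the other ligand, lay below it on both arrays. Crtam, a relative that binds nectin-like proteins, read 283 against 316, and Nectin1 read 232 against 176. Cd96, which shares the ligand Pvr with Cd226, read 21.3 in Smad4 f/f, below the floor, and 247 in Smad4 -/-, at least 1.70-fold higher. Median log2 ratios of these lists were 0.10 for the nectin axis and 0.27 for the SLAM family. Of the 6 measured SLAM genes 4 were higher and 2 lower, and 3 were above the floor on both arrays. The lower genes include Slamf1, with a log2 ratio of -0.29. Cd244a had the largest ratio of the SLAM family (15.1, below the floor, against 244, at least 1.68-fold higher).

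Around Cd47, 0 of 8 measured partners passed 2-fold. Its soluble ligand Thbs1, thrombospondin-1 of the alpha granules, read 71779 against 71633, and Gnai2, an inhibitory G protein subunit that couples to it, read 38041 against 37546. Both have 2 measured sets, with log2 ratios of -0.003 and 0.35 for Thbs1 and of -0.02 and 0.51 for Gnai2. Sirpa, the macrophage receptor for Cd47, read 241 in Smad4 f/f against 78.4, below the floor, in Smad4 -/-, at least 1.66-fold lower. Among 8 measured phosphatases and Src family kinases that act at inhibitory motifs such as those of Pecam1 and Ceacam1, 0 passed 2-fold. Ptpn11, which encodes the phosphatase SHP-2 that docks on Pecam1, had the largest ratio of that list (75945 against 107490, log2 ratio 0.50), with its 3 probe sets at 0.26 to 0.87. Fyn read 12897 against 11753 (log2 ratio -0.13), and its other measured set had a log2 ratio of -0.90. Among 10 measured genes of EGF-repeat receptors and of PI3 kinase and Akt signalling downstream of Pear1, 0 passed 2-fold. Pik3cb read 2379 against 3623 and Akt2 read 2818 against 3957. The 3 measured sets of Akt2 lay on both sides of 0, with log2 ratios from -0.40 to 0.50. The median log2 ratios of these lists were -0.10 for the Cd47 partners, -0.08 for the phosphatases and kinases and 0.002 for the Pear1 list.

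The 3 partner genes past 2-fold had signals close to the floor. Cgnl1, which encodes the junction scaffold paracingulin, read 355 against 155, 2.29-fold lower, and its 3 probe sets ran from -1.20 to 0.30 on the log2 scale. Its list of JAM relatives and junction scaffolds held 15 measured genes and had a median of -0.08, with Pard3 (24.6, below the floor, against 244), Prkci (171 against 256) and Magi1 (212 against 116, below the floor) as the next largest. The other 2 came from 13 measured genes of the TREM family and other immune receptors. Cd33, a sialic acid-binding receptor, was at least 2.83-fold lower (412 against 95.0) and Siglech, a marker of plasmacytoid dendritic cells, at least 2.02-fold lower (293 against 111), both below the floor in Smad4 -/-. In that list Trem1 was at least 1.97-fold lower, Cd300a read 168 against 331, and the median log2 ratio was -0.03. The 5 measured relatives of Ceacam1 each had 1 array below the floor, among them Ceacam15, Psg16 and Ceacam18, and a median of -0.33. Of 13 other contact receptors (median -0.06) 0 passed 2-fold, with Nptn (neuroplastin) at 144841 against 133277, Cd99l2 at 3389 against 4435 and Selp, the P-selectin of alpha granules, at 4526 against 3267. The 3 probe sets of Selp ran from -1.04 to -0.47, the lowest of them past 2-fold.

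**Figure D4:**
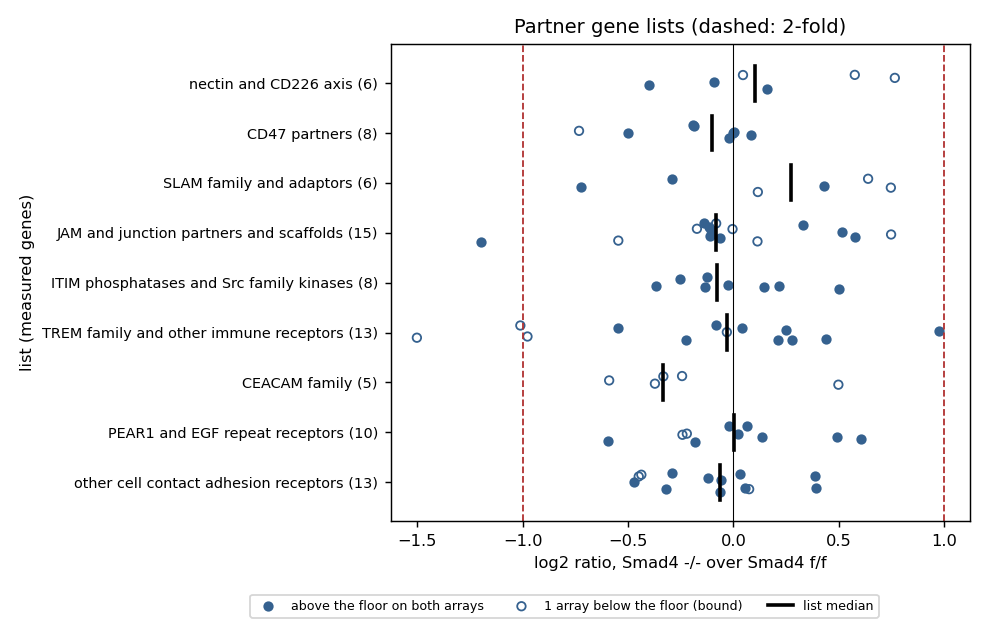
Log2 ratios (Smad4 -/- over Smad4 f/f) of the measured genes in 9 lists of partners and relatives of the contact receptors, with the number of measured genes in brackets, genes below the floor on 1 array open, list medians as bars and the 2-fold lines dashed. The points left of the lower line are Cgnl1, Cd33 and Siglech, and no gene lies right of the upper line.

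Several receptors are shared with other blood and vessel cells, so markers of those cells stand beside the ratios. Summed signals are given for each list, but the probe sets have no common scale and the brightest decide a sum, so the counts and medians are given too. All 13 platelet markers were measured and 0 passed 2-fold, with a median log2 ratio of -0.02. The strongest, Clec1b and Pf4, read 184485 against 174212 and 162822 against 167889, and the sums were 1215846 in Smad4 f/f and 1215992 in Smad4 -/-. The thrombin receptor gene F2rl3 was the exception in strength, at 164 in Smad4 f/f and 76.8, below the floor, in Smad4 -/-.

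Endothelial markers are set beside Pecam1, Esam, Jam3 and F11r. Their log2 ratios were 0.92, 0.38, 0.54 and -0.34, so F11r went the other way. Of 18, 12 were measured, 8 higher and 4 lower in Smad4 -/-, with a median log2 ratio of 0.48. The 2 strongest, Plvap (2150 in Smad4 f/f against 3049 in Smad4 -/-) and Kdr (1237 against 1733), had log2 ratios of 0.50 and 0.49, in the direction of Pecam1. Flt1 and Ptprb were at least 2-fold higher and 0 were at least 2-fold lower. Flt1 lay below the floor in Smad4 f/f and read 1361 in Smad4 -/-, with 4 probe sets that ran from -0.16 to 3.23, and Ptprb read 163 against 331. Cdh5, VE-cadherin, read 192 against 226, near the floor, and its 2 measured sets had log2 ratios of 0.23 and 0.90. Robo4 was lower, with a log2 ratio of -0.74. Erg was lower by its representative set (231 against 89.5, below the floor), with a log2 ratio of -0.67 as a bound. The other measured set of Erg was higher, at 0.63. The representative sets of Tek, Tie1, Emcn, Flt4, Mmrn2 and Sox18 lay below the floor on both arrays, though another set of Mmrn2 was measured, with a log2 ratio of -0.79. The sums were 5630 and 8327, and Flt1 alone made up 47.7% of that difference.

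T cells carry Cd226 and Cd84, and NK cells carry Cd226. Of 13 T cell markers 6 were measured, 5 higher and 1 lower in Smad4 -/-, with a median log2 ratio of 0.45. Cd28 (4685 against 12825) was the only gene past 2-fold, and Zap70 read 949 against 1350. Cd3d, a chain of the T cell receptor complex, went the other way, at 356 against 181 (log2 ratio -0.98), while Cd3e, Cd3g and Cd4 lay below the floor on both arrays. The T cell sums were 6815 and 15850, and Cd28 alone made up 90.1% of the difference. Of 10 NK cell markers 9 were measured, 8 higher and 1 lower, with 0 past 2-fold. Their median log2 ratio was 0.43 and the sums were 3121 and 3888. The strongest, Nkg7 and Gzma, read 1160 against 1180 and 604 against 930.

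Of 10 measured B cell markers 8 were higher and 2 lower, with a median log2 ratio of 0.39. Jchain (at least 3.73-fold) and Cr2 (2.33-fold) were at least 2-fold higher, and Blk was lower (log2 ratio -0.84). Ms4a1 and Ighm were the strongest (1867 against 1848 and 1278 against 1626), and the sums were 6423 and 7889. Of 7 measured monocyte and macrophage markers 3 were higher and 4 lower, with a median log2 ratio of -0.08. Csf1r was 3.11-fold higher by its representative set, with 3 sets from -0.48 to 1.64, while Mpeg1 was at least 1.93-fold lower. Lyz2 made up 99.1% and 98.8% of the sums of 140975 and 132854. Of 7 measured neutrophil markers 5 were higher and 2 lower, with a median log2 ratio of 0.23, and none passed 2-fold. S100a8 read 3178 against 3733 and S100a9 read 2418 against 3343, and the sums were 6389 and 8121. The erythroid list had 12 measured genes, 9 higher and 3 lower, with a median log2 ratio of 0.74. Fech, Bpgm, Alas2, Car2, Slc25a37 and Slc4a1, 6 in all, passed 2-fold upward, by 2.36-fold to 3.90-fold. Hba-a2, Klf1 and Rhd were lower, with log2 ratios of -0.38, -0.31 and -0.49. The erythroid sums were 14362 and 33160. In these 4 lists 0 genes were at least 2-fold lower. The part of any of these cells in the ratios of the receptors was not tested.

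RNA quality can be read from control probe sets at both ends of a transcript. Gapdh gave a 3' over 5' ratio of 1.86 on the Smad4 f/f array and 2.61 on the Smad4 -/- array, and beta-actin gave 1.16 and 1.27. The part of RNA quality in the ratios above was not tested.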

How the data were processed

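Total RNA of washed platelets was labelled with biotin and hybridised to 1 array per genotype. The authors deposited a log2 signal for every probe set on each array. The submitters' processing notes name MAS5, whose version and settings are not given in the sources used here. No further scaling was applied. Of 45101 probe sets, 64 controls were left out, and 34945 of the rest had 1 gene symbol, 932 several and 9160 none in the platform annotation, which can be out of date. Signals below the floor (60th percentile) were raised to it before a ratio was taken, so a ratio with 1 side below it is a lower bound. Each gene was represented by its brightest probe set. A 2-fold difference is a rule of size and no test.

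The members and lists were chosen with earlier results of these data known. All members are named with each probe set, except that some sets of Ceacam1 are given only within a range. Of each partner list the 4 largest ratios are named where any gene passed 2-fold, and otherwise the 2 strongest genes and the largest ratio. Of each marker list the genes past 2-fold and the 2 strongest are named. Pvr, Nectin2, Ceacam2, the neighbouring genes and the other named markers are outside these rules and were picked with their values known. List genes not named are given as counts, and some were not analysed here. Promoter windows are RefSeq's, of GRCm38.p6. Python 3.11.15, pandas 2.3.3 and statsmodels 0.14.6 were used. The steps were tested on simulated data. The alternatives were 3 scalings, 3 settings of the floor, other rules for probe sets, and thresholds of 1.5-fold and 3-fold.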

Additional observations from a re-analysis of the deposited data

How the results depend on the processing

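The 10 receptors were recomputed under median centring, quantile normalisation, loess correction, with no floor, with a floor at the 50th or the 75th percentile, without _s_at and _x_at probe sets, and with the mean of measured probe sets. Across these settings Cd226 had log2 ratios of -2.36 to -2.25 and stayed past 2-fold, also at 3-fold. Pecam1 ran from 0.91 to 1.01. The count of member genes, and of member probe sets, at least 2-fold higher was 1 in place of 0 under median centring and with a threshold of 1.5-fold, by Pecam1 each time. With no floor, 1 member probe set was at least 2-fold higher and 2 were lower, the additions being the weak second sets of F11r and Jam3. Jam3 has no value with the floor at the 75th percentile. The mean of probe sets turned Cd84 from -0.11 to 0.14 and brought Pear1 to -0.14 and Cd47 to 0.03. Leaving out _s_at and _x_at sets brought Ceacam1 to 0.08. Median centring moved the median ratio of all measured genes by 0.08 and their split past 2-fold from 379 higher and 397 lower to 479 and 315. No paired analysis was possible because there is 1 array per genotype. Depth has no meaning on these arrays; signal over background limits Jam3, most nectin-family genes and the relatives of Ceacam1.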
